A study of Mus musculus with 13 samples.

Results

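Desmosomes and the cornified layer of the epidermis share a set of genes that keratinocytes switch on as they stratify, and 37 of them were examined here in mouse melanocytes and melanocytic lesions. They were chosen as a list of named genes and cover desmosomal cadherins, the desmosomal plaque, transcription factors of stratified epithelium, structural proteins of the cornified envelope, the enzymes and inhibitors that build or process it, and secreted, surface and cytosolic proteins of differentiating keratinocytes. A gene was measured where a probe set named it alone, which held for 34 of the 37 genes, out of 19937 genes in all. Dsg1a had only a probe set shared with Dsg1b and Dsg1c, and no probe set was listed for Dsc1 or Flg, so these 3 genes were not analysed here.

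The series hybridised RNA from in vivo specimens to 13 Affymetrix arrays. Melanocytes sorted by flow cytometry make up 3 groups of 2 arrays each, namely Cdkn2a/Braf at day 19, described as before growth arrest, Cdkn2a/Braf at day 50, described as after it, and a Cdkn2a-only control at day 19 whose Braf was wild type. Tissue taken without culture makes up the other 3 groups, with 2 arrays of Cdkn2a/Braf melanoma, 2 of Cdkn2a/Braf/Lkb1 melanoma and 3 of Lkb1/Braf melanocytic proliferations, the last from pooled lesions. The Cdkn2a alteration was carried by all groups but the Lkb1/Braf proliferations, and the Braf allele by all but the Cdkn2a-only cells. Lkb1 is the kinase encoded by Stk11. The promoter that drove recombination, the sort markers, the number of mice per array and the age of the mice with lesions are not given in the sources used here.

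Desmosomes are plaques that rivet neighbouring epithelial cells together. Desmogleins and desmocollins bind across the gap, plakoglobin and the plakophilins hold their tails, and desmoplakin ties the plaque to keratin filaments. In the upper epidermis, transglutaminases then cross-link involucrin, small proline-rich proteins and plakins into the cornified envelope, the protein shell of the skin barrier. Melanocytes of the skin sit among keratinocytes and attach to them mainly through classical cadherins, and they are not known for building cornified envelopes.

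All levels are log2(intensity + 1) of probe sets summarised by the authors, and differences are on the same log2 scale with their standard error (SE). A gene was called where limma's moderated test, fitted to all 13 arrays and 19937 genes, gave a Benjamini-Hochberg adjusted p under 0.05. The SE of a gene pools its spread within all 6 groups, also those outside a comparison. The replicates are biological by their labels, and groups of 2 or 3 arrays limit the precision of every value. The levels of dim genes hold background, so differences towards a dim level are understated. Levels of different genes come from different probes and are not set against each other.

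The arrays were checked against markers of the cell types they could hold before the gene set was described. The 12 melanocyte markers summed to between 46146 and 51888 intensity units in the sorted day 19 arrays, to 24583 and 32717 in the day 50 arrays, to between 3494 and 3898 in the proliferations and to between 612 and 1114 in the melanomas. Tyr, the tyrosinase gene, read 4.45 and 4.34 in the Cdkn2a/Braf melanomas and 4.33 and 3.99 in the Cdkn2a/Braf/Lkb1 melanomas, against 11.92 and 11.66 in day 19 Cdkn2a/Braf cells. The melanomas were thus low for pigment genes, whatever their label. The 9 basal and suprabasal keratins summed to between 1112 and 2936 in the day 19 arrays, to 17232 and 14038 at day 50, to 579 and 6250 in the Cdkn2a/Braf melanomas, to 524 and 1234 in the Cdkn2a/Braf/Lkb1 melanomas and to between 23274 and 24849 in the proliferations. The 34 genes themselves summed to between 4232 and 5699 in the day 19 arrays, to 9702 and 12545 at day 50, to 2764 and 13458 in the Cdkn2a/Braf melanomas, to 2589 and 3575 in the Cdkn2a/Braf/Lkb1 melanomas and to between 32672 and 38217 in the proliferations. On every sorted array the keratin sum was thus above that of the first Cdkn2a/Braf melanoma. The keratin sum and that of the 34 genes were both highest in the proliferations, but they did not move together throughout. From the first to the second day 50 array the keratin sum fell while that of the 34 genes rose. Bright genes weigh most in such sums. Krtdap went there from 263 to 2481 units and Dmkn from 316 to 1527. Of the 34 genes 17 read higher on the second day 50 array, with a median log2 difference of 0.01. In the second Cdkn2a/Braf melanoma the 34 genes summed above both day 50 arrays and the keratins below both. The median level of the 34 genes in that melanoma, 7.44, lay between those of the day 50 arrays, 7.51 and 7.36. The part of keratinocyte content in the results below was not tested, and in bulk RNA fewer cells of a type and less RNA per cell cannot be told apart.

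Arrays of the same melanoma group differed for these genes, with the larger median in the Cdkn2a/Braf pair. In the second Cdkn2a/Braf melanoma all 34 genes read higher than in the first, with a median difference of 1.16 and a largest difference of 6.08 for Krtdap. A difference above 1 was seen for 20 of the 34 genes (58.8%), against 1.74% of all genes between the same arrays. The keratins differed in the same direction, with a median of 3.34 and 7 of 9 higher in the second array. The medians were -0.06 for hair follicle keratinocyte markers, -0.19 for fibroblast, 0.32 for melanocyte, 0.37 for sebocyte and 0.14 for leukocyte markers. A difference above 1 was seen for 2 of 19 hair follicle, 0 of 8 fibroblast, 2 of 12 melanocyte, 2 of 7 sebocyte and 3 of 9 leukocyte markers. These lists are not separate, since Krt79 is in both the hair follicle and the sebocyte list and Kit in both the melanocyte and the leukocyte list. The pair of Cdkn2a/Braf/Lkb1 melanomas differed with a smaller median, 0.37, and 26 of 34 genes higher in the second array. A difference above 1 was seen there for 8 of the 34 genes (23.5%), against 0.973% of all genes, and for 5 of 9 keratins, whose median was 1.13. Between the day 50 arrays 3 of the 34 genes (8.82%) read higher by more than 1 on the second array, against 5.82% of all genes. Trp63 differed there by -1.16. Between the Cdkn2a-only arrays 3 of the 34 genes (8.82%) also read higher by more than 1 on the second, against 1.19% of all genes. So did 4 of 9 keratins. Among the 3 proliferations no gene of the set differed by more than 1 between arrays. Several results that rest on the Cdkn2a/Braf melanomas are given below with and without each array, and the others rest on both arrays together. Leaving out 1 array of a pair leaves 1 in its group and takes the pair's spread out of the SE. Counts of called genes then mix a change of level with a change of SE.

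**Figure D1:**
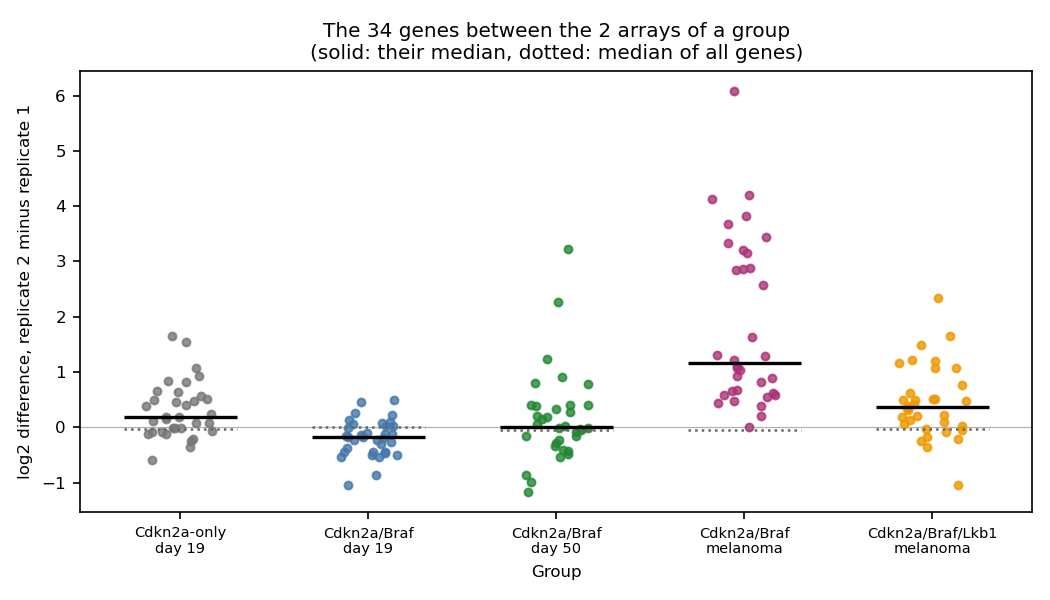
Difference in log2(intensity + 1) between the arrays of each group with 2 arrays, replicate 2 minus replicate 1, with 1 point per gene of the set. Solid bars are the median of the 34 genes and dotted bars that of all genes. The Cdkn2a/Braf melanoma points all lie above 0, up to 6.08, with a median of 1.16.

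Across the 6 groups the set was highest in the Lkb1/Braf proliferations. The group mean was highest there for 33 of the 34 genes and in Cdkn2a-only cells for the remaining gene, Tgm3. All 3 proliferation arrays lay above all 10 other arrays for 29 genes, an arrangement found for 4.77% of all genes. The exceptions were Aqp3, Asprv1, Ivl, Krtdap and Tgm3. The lowest group mean was in the Cdkn2a/Braf/Lkb1 melanomas for 25 genes, in Cdkn2a-only cells for 6 and in day 19 Cdkn2a/Braf cells for 3.

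**Figure D2:**
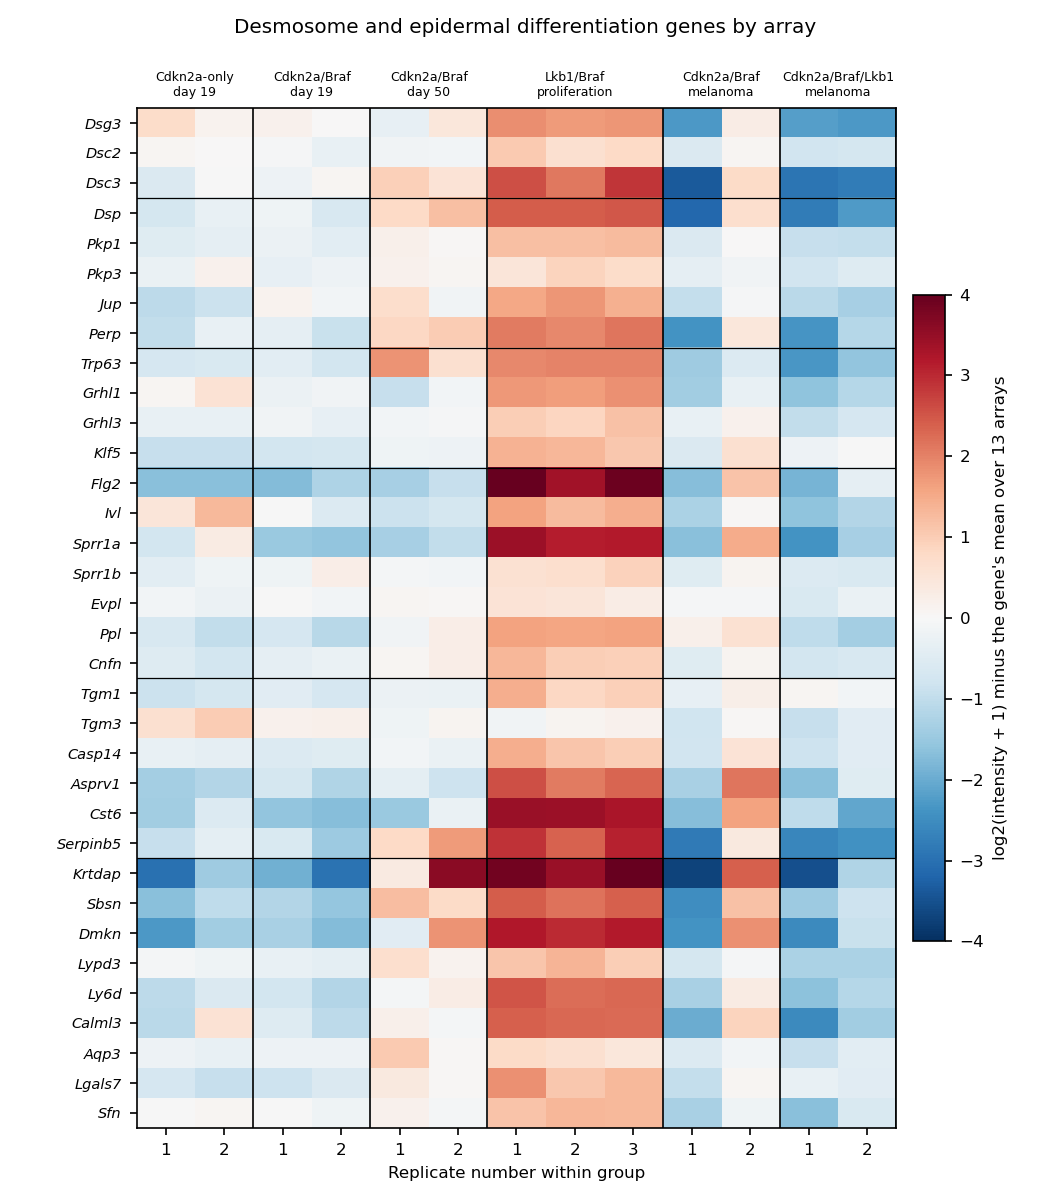
Level of each of the 34 genes on each of the 13 arrays, as log2(intensity + 1) minus the gene's mean over the arrays. Red is above and blue below that mean, and horizontal lines separate the roles. The 3 proliferation columns are red for nearly all genes, the second Cdkn2a/Braf melanoma column is redder than the first in every row, and the day 50 columns are raised for some genes, such as Krtdap, Sbsn and Trp63, and not for Flg2 or Sprr1a.

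Of the desmosomal cadherins, Dsg3, Dsc2 and Dsc3 could be measured. Dsc3, a desmocollin of the lower epidermal layers, read 7.24 and 7.81 in Cdkn2a-only cells, 7.63 and 7.88 in Cdkn2a/Braf cells at day 19, and 8.76 and 8.35 at day 50. It read 10.39, 9.94 and 10.67 in the proliferations, 4.45 and 8.57 in the Cdkn2a/Braf melanomas, and 4.90 and 5.03 in the Cdkn2a/Braf/Lkb1 melanomas. The proliferations were highest without overlap, and the second Cdkn2a/Braf melanoma lay among the sorted cells while the other 3 melanomas lay below every sorted array. Dsg3, the pemphigus antigen of the basal and spinous layers, read 8.77, 8.62 and 8.69 in the proliferations and between 6.57 and 7.64 on the 6 sorted arrays. In the melanomas Dsg3 read 4.63 and 7.20 in Cdkn2a/Braf and 4.71 and 4.62 in Cdkn2a/Braf/Lkb1 tissue, the same split between arrays. Dsc2, the desmocollin of simple as well as stratified epithelia, spanned a narrower range, from 4.84 in a Cdkn2a/Braf/Lkb1 melanoma to 6.65 in a proliferation. Dsc3 and Dsc2 are adjacent genes in the RefSeq order.

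The plaque genes were also highest in the proliferations. Dsp, which encodes desmoplakin, read 8.49 and 8.89 in Cdkn2a-only cells, 9.03 and 8.56 in day 19 Cdkn2a/Braf cells, 9.98 and 10.39 at day 50, and 11.62, 11.62 and 11.69 in the proliferations. It read 6.06 and 9.88 in the Cdkn2a/Braf melanomas and 6.40 and 6.92 in the Cdkn2a/Braf/Lkb1 melanomas. Every group except the Cdkn2a/Braf melanomas was tight for Dsp (SD 0.04 to 0.37), whereas that group had an SD of 2.70. Perp, a tetraspan protein that stabilises desmosomes downstream of p63, read 11.16, 10.98 and 11.22 in the proliferations and 6.71 and 7.93 in the Cdkn2a/Braf/Lkb1 melanomas. Jup (plakoglobin), Pkp1 and Pkp3 (plakophilins) had the same highest group, with means of 9.15, 8.29 and 7.94 in the proliferations.

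Among the transcription factors, Trp63 encodes p63, which specifies stratified epithelium. Trp63 read 7.48 and 7.55 in Cdkn2a-only cells, 7.72 and 7.41 in Cdkn2a/Braf cells at day 19, and 9.96 and 8.80 at day 50. It read 10.08, 10.14 and 10.12 in the proliferations, 6.71 and 7.60 in the Cdkn2a/Braf melanomas, and 5.81 and 6.58 in the Cdkn2a/Braf/Lkb1 melanomas. The day 50 arrays lay between the day 19 arrays and the proliferations without overlap with either. Grhl1, a grainyhead factor that acts on desmosomal cadherin genes, read 8.20, 8.14 and 8.29 in the proliferations and no more than 7.04 on any other array. Grhl3, needed for the epidermal barrier, averaged 7.57 in the proliferations and 5.74 in the Cdkn2a/Braf/Lkb1 melanomas, and Klf5, a factor of proliferating keratinocytes, averaged 8.97 and 7.60 in these groups.

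Among the cornified envelope genes, Flg2 and Sprr1a were raised in the proliferations and, less so, in the second Cdkn2a/Braf melanoma. Flg2, a filaggrin relative, read 9.99, 9.26 and 9.84 in the proliferations and between 4.19 and 4.98 on the 6 sorted arrays. In the melanomas Flg2 read 4.19 and 7.06 in Cdkn2a/Braf and 4.05 and 5.54 in Cdkn2a/Braf/Lkb1 tissue. Sprr1a, a small proline-rich cross-bridging protein, read 12.24, 11.95 and 11.99 in the proliferations, 7.48 and 7.82 at day 50, and 7.16 and 10.32 in the Cdkn2a/Braf melanomas. Evpl, the plakin envoplakin, spanned a narrow range, from 6.41 on a Cdkn2a/Braf/Lkb1 melanoma array to 7.56 in a proliferation. Ppl, its partner periplakin, read 9.22, 9.19 and 9.23 in the proliferations, 7.82 and 8.21 in the Cdkn2a/Braf melanomas, and 6.60 and 6.25 in the Cdkn2a/Braf/Lkb1 melanomas. The Cdkn2a/Braf melanomas lay close to each other for Ppl, above day 19 cells and below the proliferations, and the Cdkn2a/Braf/Lkb1 melanomas lay lower without overlap. Sprr1a and Sprr1b are relatives whose probes may share RNA, which was not tested, and their separate values are uncertain.

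Of the enzymes and inhibitors, Cst6, a cystatin that restrains cathepsins in the cornified layer, read 11.02, 10.99 and 10.81 in the proliferations and between 5.86 and 7.30 on the sorted arrays. It read 5.85 and 9.18 in the Cdkn2a/Braf melanomas and 6.54 and 5.50 in the Cdkn2a/Braf/Lkb1 melanomas, where the second array was not the higher. Serpinb5, the serpin maspin, read 6.37 and 5.51 in Cdkn2a/Braf cells at day 19, 7.79 and 8.69 at day 50, and 9.88, 9.34 and 10.06 in the proliferations. Tgm3, an epidermal and hair follicle transglutaminase, was the exception in the set. It read 7.45 and 7.85 in Cdkn2a-only cells, above the 6.68, 6.92 and 6.98 of the proliferations.

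Krtdap, Sbsn and Dmkn encode secreted proteins of the suprabasal epidermis and lie next to each other on chromosome 7. Krtdap had the widest range of the set. It read 4.71 and 6.26 in Cdkn2a-only cells, 5.77 and 4.72 in Cdkn2a/Braf cells at day 19, 8.04 and 11.28 at day 50, and 11.55, 11.13 and 11.70 in the proliferations. It read 3.99 and 10.07 in the Cdkn2a/Braf melanomas and 4.16 and 6.49 in the Cdkn2a/Braf/Lkb1 melanomas, so arrays of the same group differed by up to 6.08. Sbsn read 10.62 and 10.13 at day 50 and 8.20 and 7.83 at day 19, and the second Cdkn2a/Braf melanoma reached 10.55. Aqp3, a water and glycerol channel of the basal layer, ranged from 5.73 in a Cdkn2a/Braf/Lkb1 melanoma to 7.70 on a day 50 array, above the highest proliferation at 7.42.

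**Figure D3:**
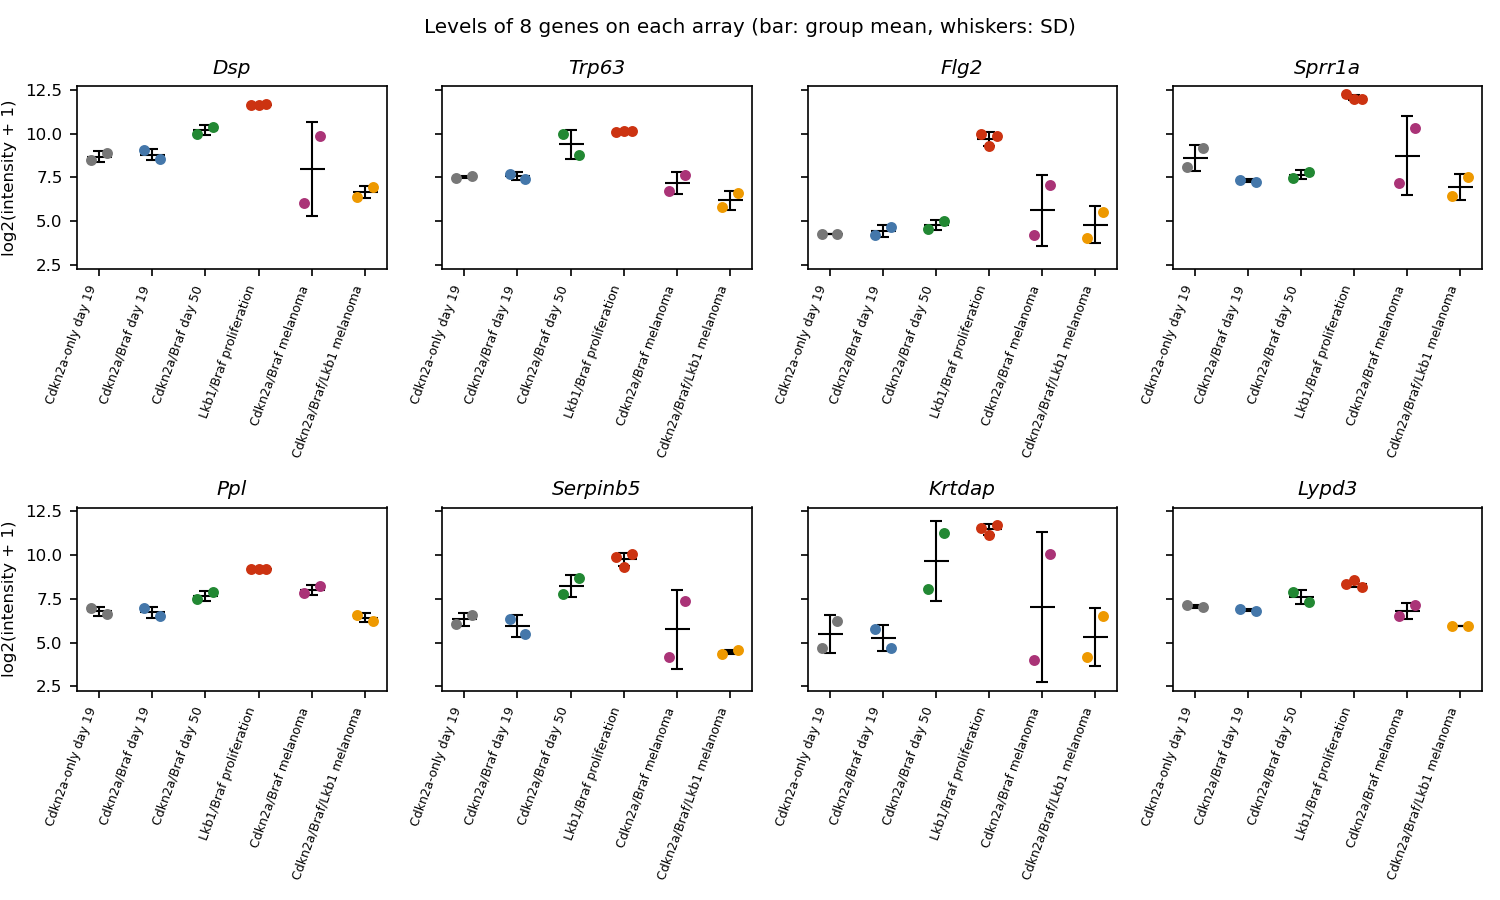
Levels of 8 genes on each array, as log2(intensity + 1) with 1 point per array, the group mean as a bar and the SD as whiskers (2 arrays per group, 3 proliferations). The proliferations are tight and highest for Dsp, Flg2, Sprr1a and Ppl. The Cdkn2a/Braf melanoma arrays lie far apart for Krtdap, Dsp and Flg2 and close together for Ppl.

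Promoters of 3 genes are shown as examples of those that hold an AP-1 motif, with Ivl and Sprr1a from the envelope genes and Krtdap from the chromosome 7 cluster. RefSeq promoters, from 250 bases before to 50 bases after the annotated start, were matched for 21 of the 34 genes by symbol. Each is written 5′ to 3′ on its own strand, and capitals mark the AP-1 motif TGANTCA, whose reverse complement is the same motif.
Ivl, promoter, GRCm38.p6, chr3:92573686-92573985, minus strand: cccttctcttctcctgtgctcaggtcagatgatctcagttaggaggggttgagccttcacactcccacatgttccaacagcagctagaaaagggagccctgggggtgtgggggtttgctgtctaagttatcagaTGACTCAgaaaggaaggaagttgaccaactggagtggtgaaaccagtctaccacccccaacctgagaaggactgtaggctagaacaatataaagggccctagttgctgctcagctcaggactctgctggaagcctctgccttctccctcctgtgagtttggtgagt
Sprr1a, promoter, GRCm38.p6, chr3:92485832-92486131, minus strand: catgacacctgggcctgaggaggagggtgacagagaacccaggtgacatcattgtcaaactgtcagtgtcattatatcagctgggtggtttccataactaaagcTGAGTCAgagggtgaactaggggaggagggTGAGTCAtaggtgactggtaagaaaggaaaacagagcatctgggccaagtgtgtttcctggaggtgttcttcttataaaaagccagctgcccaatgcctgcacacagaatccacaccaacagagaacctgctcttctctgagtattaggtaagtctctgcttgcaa
Krtdap, promoter, GRCm38.p6, chr7:30787655-30787954, plus strand: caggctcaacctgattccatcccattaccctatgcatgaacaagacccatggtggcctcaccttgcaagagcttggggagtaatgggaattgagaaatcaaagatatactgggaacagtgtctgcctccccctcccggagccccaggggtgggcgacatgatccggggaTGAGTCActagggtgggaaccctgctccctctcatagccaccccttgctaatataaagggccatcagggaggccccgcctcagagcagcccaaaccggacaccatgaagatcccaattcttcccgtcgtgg
The motif lay 116 bases before the start in Ivl, 146 and 116 bases before it in Sprr1a and 81 bases before it in Krtdap. It was present in 8 of the 21 promoters (38.1%), those of Flg2, Ivl, Sprr1a, Sprr1b, Serpinb5, Krtdap, Sbsn and Dmkn, and in 8.97% of 27025 gene promoters of the same length. The grainyhead motif AACCNGTT, searched on both strands as well, was present in 1 of the 21, that of Sfn, and in 2.35% of all. A motif match is a description of these letters and does not show binding.

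The melanomas were compared with the proliferations, which are the non-malignant lesions of the series. In Cdkn2a/Braf/Lkb1 melanomas all 34 genes fell relative to the proliferations, where 20.6% of all genes were called lower. The median difference of the set was -2.82 against -0.04 over all genes. The range ran from -0.74 for Tgm3 (SE 0.24, limma adjusted p = 0.0353) to -6.14 for Krtdap (SE 1.53, limma adjusted p = 0.0108). The Krtdap difference depended on the melanoma arrays, at -4.97 without the first (limma adjusted p = 0.0998) and -7.30 without the second (limma adjusted p = 0.0228). Dsc3 differed by -5.37 (SE 0.87, limma adjusted p = 0.00129), Serpinb5 by -5.29 (SE 0.73, limma adjusted p = 0.00054) and Dsp by -4.98 (SE 0.80, limma adjusted p = 0.00127). Trp63 differed by -3.92 (SE 0.35, limma adjusted p = 5.49e-05), which is 15.1-fold. Both melanoma arrays lay below all 3 proliferation arrays for all 34 genes, as they did for 35.8% of all genes. Both groups carry the Lkb1 and Braf alterations and only the melanomas the Cdkn2a alteration, so lesion type and Cdkn2a genotype cannot be told apart.

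In Cdkn2a/Braf melanomas 31 of the 34 genes fell relative to the proliferations, where 8.88% of all genes were called lower. The median was -2.02 against -0.02 over all genes. Flg2 differed by -4.07 (SE 0.69, limma adjusted p = 0.00284), Serpinb5 by -4.00 (SE 0.73, limma adjusted p = 0.00406) and Dsc3 by -3.83 (SE 0.87, limma adjusted p = 0.012). Of the set 3 genes missed the threshold. They were Krtdap at -4.43 (SE 1.53, limma adjusted p = 0.0653), Asprv1, a protease that processes profilaggrin, at -1.90 (SE 0.77, limma adjusted p = 0.106), and Tgm3 at -0.42 (SE 0.24, limma adjusted p = 0.252). Both melanoma arrays lay below all 3 proliferations for 32 of the 34 genes, and for 27.7% of all genes. Without the first melanoma 23 genes were called lower with a median of -1.31, where 4.6% of all genes were, and without the second 31 with a median of -2.63, where 4.73% were. Genotypes of these groups differ in both Cdkn2a and Lkb1, and both comparisons use the same 3 proliferation arrays.

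**Figure D4:**
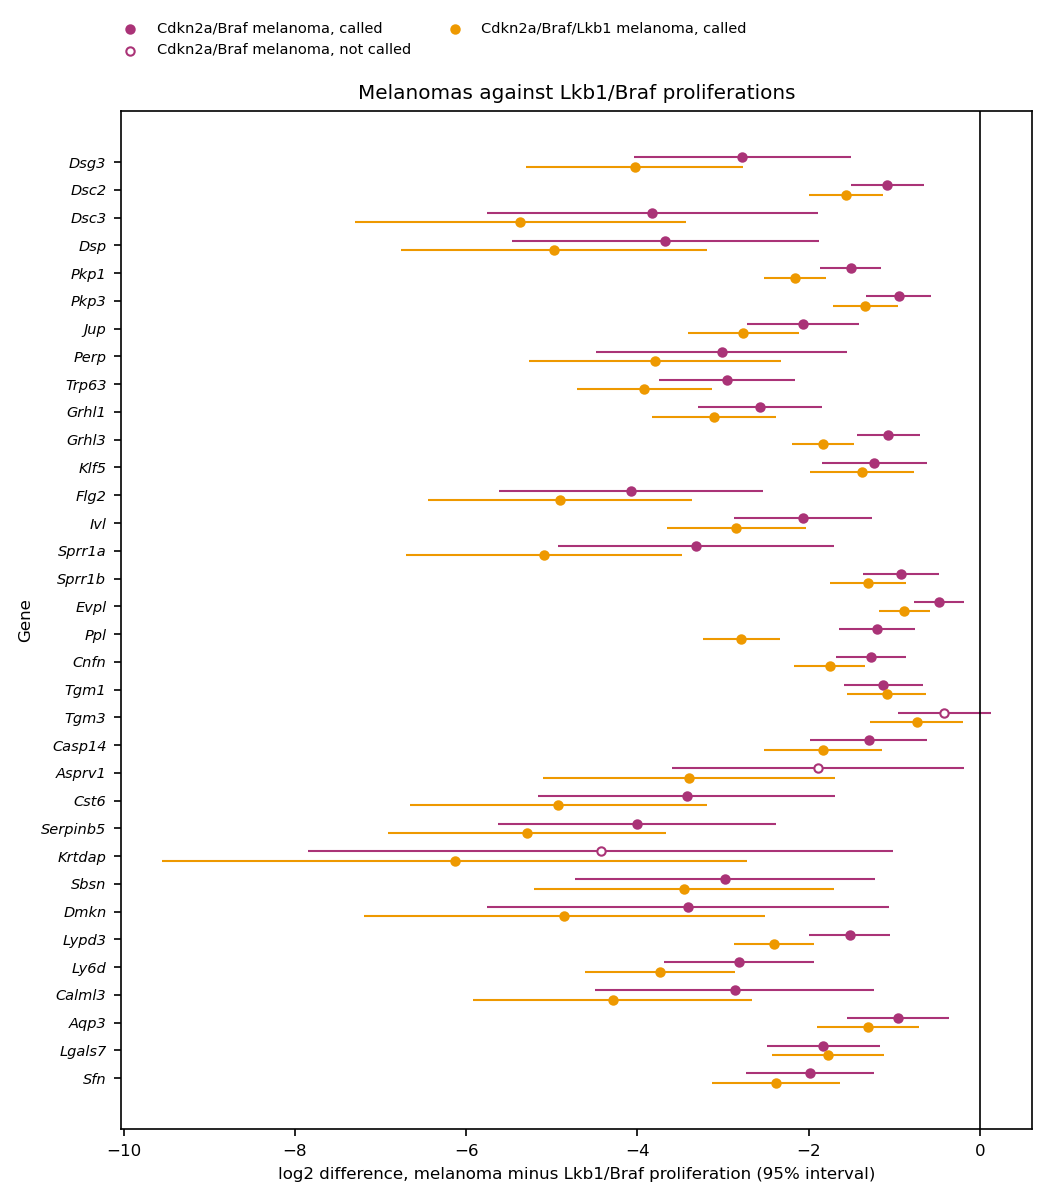
Difference in log2(intensity + 1) between each melanoma group (2 arrays each) and the 3 Lkb1/Braf proliferations for the 34 genes, with 95% intervals from the limma fit. Filled points passed the test and open points did not. All points lie below 0, from -0.42 for Tgm3 to -6.14 for Krtdap, and only Tgm3, Asprv1 and Krtdap in the Cdkn2a/Braf melanomas are open.

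Most related epithelial lists had negative medians in the melanomas too, and the hemidesmosome list did not. Of 37 other cornified envelope genes 16 fell in the Cdkn2a/Braf melanomas and 25 in the Cdkn2a/Braf/Lkb1 melanomas, and none rose. The 16 became 8 without the first Cdkn2a/Braf melanoma and 19 without the second. Scel, the envelope protein sciellin, differed by -3.79 and -3.94, and the first of these was -2.61 without the first Cdkn2a/Braf array and -4.97 without the second. Lor, the main envelope protein loricrin, differed by -2.42 (limma adjusted p = 0.072) and -3.94 (limma adjusted p = 0.0058). Without the first Cdkn2a/Braf array Lor differed by -0.51 (limma adjusted p = 0.547) and without the second by -4.33 (limma adjusted p = 0.000827). Of 32 barrier lipid and protease genes 25 and 29 fell, and the 25 became 16 and 26 without the first and the second Cdkn2a/Braf array. They include Spink5, the inhibitor of the kallikreins of the cornified layer, at -3.96 and -5.64. Spink5 in the Cdkn2a/Braf melanomas differed by -1.79 without the first array (limma adjusted p = 0.0944) and by -6.12 without the second (limma adjusted p = 0.000404). The lipase gene Lipo3 rose by 2.78 and 2.17 in the same comparisons. Of 7 other desmosome genes 5 fell in each melanoma group, with 4 in the Cdkn2a/Braf melanomas when either array was left out, among them Dsg1b at -2.23 and -2.60, whose probes may also detect its close relatives.

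Transcription factors and hemidesmosome genes had members that rose, and junction genes, keratins and hair follicle markers had none. Of 23 other epidermal transcription factors 10 fell and 2 rose in the Cdkn2a/Braf melanomas, and 16 fell and 1 rose in the Cdkn2a/Braf/Lkb1 melanomas. Gata3, a factor of epidermis and hair follicle, differed by -3.58 and -4.24, and Prdm1 rose in both. Without the first Cdkn2a/Braf array 8 transcription factors fell and 2 rose, and without the second 9 fell and 1 rose. Of 18 epithelial junction genes 13 and 16 fell, and the 13 became 10 and 12 without the first and the second Cdkn2a/Braf array. Of 8 hemidesmosome genes, which anchor basal cells to the basement membrane, 3 fell and 2 rose in each melanoma group, and the rising genes were Dst and Cd151. The median of this list was 0.26 and 0.13. Without the first and the second Cdkn2a/Braf array 3 and 2 hemidesmosome genes fell and 1 rose, Dst, while Cd151 missed the threshold (limma adjusted p = 0.0938 and 0.0748). The 9 keratins fell in 7 and 9 cases, and the 7 became 5 and 7 without the first and the second Cdkn2a/Braf array. All 19 hair follicle keratinocyte markers fell in both groups, and 18 and 16 of them in the Cdkn2a/Braf melanomas without the first and the second array, with Krt25 of the inner root sheath at -5.58 and -5.75. Of the 12 melanocyte markers 7 and 9 fell, and the 7 became 5 when either Cdkn2a/Braf array was left out.

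Lkb1 was asked about within melanoma by setting Cdkn2a/Braf/Lkb1 against Cdkn2a/Braf tumours. Ppl fell by 1.59 (SE 0.22, limma adjusted p = 0.00622), a 3.01-fold difference, and it was the only gene of the 34 that was called, where 0.732% of all genes were called lower and 1.83% higher. The difference was negative for 32 of the 34 genes, with a median of -0.77 against -0.04 over all genes. Grhl3 differed by -0.77 (SE 0.18, limma adjusted p = 0.0551), Lypd3, a surface protein of the upper epidermis, by -0.88 (SE 0.23, limma adjusted p = 0.0767) and Pkp1 by -0.65 (SE 0.18, limma adjusted p = 0.0839). Both Cdkn2a/Braf/Lkb1 arrays lay below both Cdkn2a/Braf arrays for 11 of the 34 genes (32.4%), and for 28.9% of all genes.

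In that comparison the median of the set rested on the second Cdkn2a/Braf melanoma. Without that array the median was 0.02 and the Ppl difference was -1.39. Over the alternatives the limma adjusted p of Ppl ranged from 0.0058 to 0.113, so Ppl was not called under all of them. Without the first Cdkn2a/Braf melanoma instead, the median was -1.31. Either fit keeps 1 Cdkn2a/Braf melanoma and changes the SE as well as the level. Dsp, for example, differed by 0.61 when the second array was left out and by -3.21 when the first was. Of the epithelial lists outside the set only the hemidesmosome list held a called gene, Lama3, a laminin chain of the basement membrane, at -0.93.

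Day 50 against day 19 compared sorted Cdkn2a/Braf cells after and before growth arrest, by the labels. Trp63 rose by 1.81 (SE 0.39, limma adjusted p = 0.00936), a 3.51-fold difference, Ppl by 0.95 (SE 0.22, limma adjusted p = 0.0136) and Lypd3 by 0.75 (SE 0.23, limma adjusted p = 0.0405). These were 3 of the 34 genes, 8.82% of the set, where 11.1% of all genes were called higher, and none was called lower, where 14.5% of all genes were. The median difference of the set was 0.47 and that of all genes 0.17. Larger differences with wide intervals missed the threshold, among them Krtdap at 4.42 (SE 1.68, limma adjusted p = 0.0741), Sbsn at 2.36 (SE 0.86, limma adjusted p = 0.0666) and Serpinb5 at 2.30 (SE 0.80, limma adjusted p = 0.0577). For Sbsn the SD was 0.34 at day 50 and 0.27 at day 19, against 2.60 in the Cdkn2a/Braf melanomas. That spread enters the SE although the melanomas are outside this comparison. A fit of the sorted arrays alone leaves it out but has fewer arrays. There the limma adjusted p was 0.0574 for Trp63, 0.075 for Ppl and 0.0815 for Lypd3, so none of these 3 was called. Both day 50 arrays lay above both day 19 arrays for 24 of the 34 genes, and for 45.9% of all genes. Without the second day 19 array none of the 34 was called by limma, and 4 had an unadjusted p under 0.05.

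Markers of other cells moved with the day 50 arrays as well. Of 9 keratins 2 rose, Krt15 of the basal layer and hair follicle bulge by 2.69 and Krt80 by 1.91, and all 9 differences were positive. All 6 endothelial markers rose, 5 of 8 fibroblast markers rose and 1 fell, Dpt at -2.58, and 8 of 12 melanocyte markers fell. The day 50 arrays differed most of any pair over all genes (SD of the difference 0.703, against 0.271 to 0.404 in other pairs). Their endothelial markers summed to 2406 on the first and 884 on the second array, against 399 and 371 in day 19 Cdkn2a/Braf cells. Of the 12 melanocyte markers 5 differed by more than 1 between the day 50 arrays. Of 19 hair follicle keratinocyte markers 4 fell and none rose, with a median of -0.29, and of 23 other epidermal transcription factors 3 rose and 2 fell, Tfap2a and Prdm1. Of 8 hemidesmosome genes 4 rose, with Itga6 at 1.36 and Itgb4, its partner integrin, at 1.13. Among 18 junction genes 3 rose and 1 fell, Ctnnd1 at -0.50. Cdh1, the E-cadherin by which melanocytes and keratinocytes adhere, rose by 1.73, and Epcam by 1.68. Cornified envelope genes outside the set rose in 6 of 37 cases, by no more than 0.58. The part of other cells in the rise of Trp63, Ppl and Lypd3 was not tested.

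**Figure D5:**
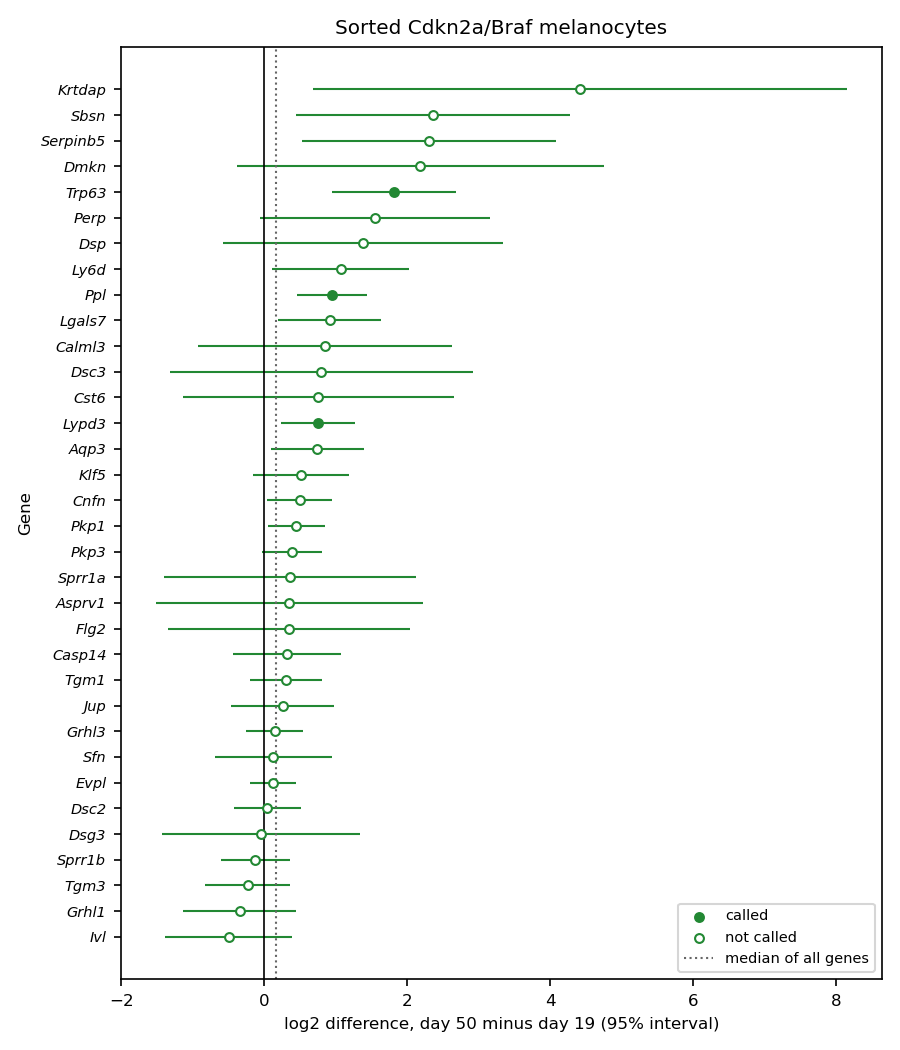
Difference in log2(intensity + 1) between day 50 and day 19 Cdkn2a/Braf melanocytes (2 arrays each) for the 34 genes, with 95% intervals from the limma fit. Filled points, Trp63, Ppl and Lypd3, passed the test. The dotted line is the median of all genes, 0.17, and the intervals of Krtdap and Dmkn are the widest.

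The Braf allele at day 19 was examined by setting Cdkn2a/Braf against Cdkn2a-only cells. No gene of the 34 was called by limma, where 0.236% of all genes were called higher and 0.0552% lower, and 3 had an unadjusted p under 0.05. These were Jup at 0.97 (SE 0.32, limma adjusted p = 0.445), Ivl at -1.16 (SE 0.40, limma adjusted p = 0.469) and Tgm3 at -0.63 (SE 0.27, limma adjusted p = 0.661). Ivl, the envelope precursor involucrin, read 6.80 and 6.27 in Cdkn2a/Braf and 7.29 and 8.10 in Cdkn2a-only cells. The groups did not overlap for Ivl, but the difference did not pass the test. The median of the set was 0.00 and that of all genes 0.02.

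Tissue lesions were also set against the day 50 cells, where sorted cells and whole tissue cannot be told apart from the groups. In the proliferations 21 of the 34 genes were higher than at day 50, where 9.11% of all genes were called higher, and none was lower, where 9.20% were. The median was 1.35 against -0.10 over all genes. Flg2 differed by 4.92 (SE 0.69, limma adjusted p = 0.00127), Sprr1a by 4.40 (SE 0.72, limma adjusted p = 0.00298) and Cst6 by 4.26 (SE 0.78, limma adjusted p = 0.00505). In contrast Dsp differed by 1.46 (SE 0.80, limma adjusted p = 0.229), Trp63 by 0.74 (SE 0.35, limma adjusted p = 0.173) and Krtdap by 1.80 (SE 1.53, limma adjusted p = 0.437), and none of these passed. The SE of Dsp also holds the spread of the Cdkn2a/Braf melanomas (SD 2.70, against 0.04 in the proliferations and 0.29 at day 50). Whether the envelope genes differed more than Dsp or Trp63 was not tested. By keratins the groups were closer, with 1 of 9 higher in the proliferations, Krt80, and a median of 0.62.

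In the Cdkn2a/Braf melanomas 4 of the 34 genes were lower than at day 50, where 16.9% of all genes were called lower, and none was higher, where 15.5% were. They were Serpinb5 at -2.49 (SE 0.80, limma adjusted p = 0.039), Trp63 at -2.22 (SE 0.39, limma adjusted p = 0.0032), Aqp3 at -0.88 (SE 0.29, limma adjusted p = 0.0443) and Lypd3 at -0.78 (SE 0.23, limma adjusted p = 0.0302). Without the first and then the second Cdkn2a/Braf melanoma, Serpinb5 differed by -0.89 and -4.09 and Trp63 by -1.77 and -2.66. Aqp3 differed by -0.65 and -1.10 and Lypd3 by -0.45 and -1.11 in these fits. The median difference of the set depended on which Cdkn2a/Braf melanoma was kept. Without the second it was -0.84 and without the first 0.20. Either fit keeps 1 Cdkn2a/Braf melanoma and changes the SE as well as the level, so its count of called genes does not measure the level alone.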

How the data were processed

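Each array is 1 sample. The deposited intensity values were made by the authors with RMA, of unstated version, per the submitters' processing notes. RMA corrects background, normalizes between arrays and summarises probe sets. It gives log2 values, whereas the deposited intensities are linear (3.35 to 17698, array medians 68.3 to 80.5), so log2(intensity + 1) was computed. RNA was amplified and labelled with NuGEN kits, per the labels' protocols. The compressed range over genes on the day 50 and proliferation arrays (interquartile ranges 1.93 to 2.11, against 2.45 to 2.89 elsewhere) is one way processing could change the differences. The array's genome build is unknown here.

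Of 34760 probe sets, 21640 named 1 gene in the platform table, 1321 several and 11799 were not listed. Only the first kind was used, giving 19937 genes. For the 954 genes with several sets, Sfn among them, the set with the highest mean was used. Columns that belong to no sample number 0.

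Group means (6) were modelled over all arrays in limma 3.58.1 under R 4.3.3 (7 residual and 3.08 prior degrees of freedom), two-sided, adjusted over all genes at 0.05, and tested on simulated data. The members, the other lists and the alternatives were chosen with earlier results of these data known, so no list is independent evidence. All members could be named, with values on every array for at least 1 of each role and for those with the largest called differences. Alternatives were another pseudocount, 3 rescalings, averaging a gene's probe sets, leaving out dim genes, other limma settings, subsets of arrays, replicate number as a block and leaving out each array. Promoters are from RefSeq (GRCm38.p6). Tables and plots were made with Python 3.11.15, pandas 2.3.3, numpy 2.4.6 and matplotlib 3.10.9.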

Additional observations from a re-analysis of the deposited data

Results flagged for a closer look

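The probe set shared by Dsg1a, Dsg1b and Dsg1c, desmogleins of the upper epidermal layers, was used in no comparison because it names no single gene. It was above both Cdkn2a-only control arrays, which read 5.89 and 8.43, on every array of 2 groups. The lowest day 50 array read 9.50 and the other 10.91. The lowest proliferation array read 11.12 and the others 11.49 and 11.58. The day 19 Cdkn2a/Braf cells, at 7.88 and 7.13, and the Cdkn2a/Braf melanomas, at 4.62 and 9.29, overlapped the controls. Both Cdkn2a/Braf/Lkb1 melanomas, at 4.84 and 5.84, lay below both controls. These differences were not tested. No group holds enough arrays for a test of single outlying arrays.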

How the results depend on the processing

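Under all alternatives with a value, between 23 and 33 of the 34 genes were lower in Cdkn2a/Braf melanomas than in the proliferations and between 28 and 34 in Cdkn2a/Braf/Lkb1 melanomas, and none was called in the Braf comparison. Leaving out 1 array at a time gave 23 to 31 and 28 to 34 genes in the first and second of these, 15 to 21 for the proliferations against day 50, 0 to 4 for day 50 against day 19, 0 to 17 for Lkb1 in melanoma, 2 to 15 for Cdkn2a/Braf melanoma against day 50 and 0 for Braf. These are calls in either direction, and for Cdkn2a/Braf melanoma against day 50 they hold 1 to 15 genes called lower and 0 to 5 called higher. The counts that involve day 50 cells depended on scaling. Quantile normalization gave 6 genes for day 50 against day 19 and 11 for Cdkn2a/Braf melanoma against day 50, and a common interquartile range gave 10 and 13. Array weights gave 1 and 1, and 10 for the proliferations against day 50. Fitting only the 2 groups compared gave 0 and 0, and 0 for Lkb1 in melanoma. These fits have fewer arrays, and for the other settings the cause was not tested. Under the common interquartile range the median of all genes moved from 0.17 to -0.05 for day 50 against day 19, from -0.02 to 0.14 for Cdkn2a/Braf and from -0.04 to 0.16 for Cdkn2a/Braf/Lkb1 melanomas against the proliferations. With the replicate number as a block, 1 gene was called for Cdkn2a/Braf melanoma against day 50, and the counts in the order of day 50 against day 19, Braf, Lkb1, both melanoma groups against the proliferations and the proliferations against day 50 were 2, 0, 1, 28, 34 and 15. Whether the numbers pair the arrays was not settled. Same-numbered arrays of the compared groups deviated with correlations of -0.12 for Lkb1, -0.05 for day 50 against day 19 and 0.06 for Braf. With 2 arrays per group such a check gives 1 value up to its sign and cannot decide this. A crossed pairing for Lkb1, added after the data were seen, called 1 gene of the set and 333 of all genes, against 510 without it. The values carry no call of signal over background, and dim levels limit the smaller differences.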
